A study of Mus musculus with 12 samples.

Results

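Chemokines and their receptors were followed in the kidney RNA of 12 mice. A gene belonged to the set when its symbol was that of a CC, CXC, XC or CX3C ligand, of a receptor for one of these, or of an atypical receptor, and when the table gave it as protein coding. By this rule 68 of the 54532 genes listed were members, 44 of them ligand genes and 24 receptor genes. They carried 62 different symbols, since 7 entries were copies on unplaced scaffolds and 61 lay on assembled chromosomes. All mice were C57BL/6 and had an injured kidney, in 4 groups of 3 separate animals. Bcat KO mice, written here as β-catenin knockout, and their wild-type (WT) controls had UUO surgery, the lasting ligation of the left ureter. In the knockout mice β-catenin was floxed and removed by Cre under the kidney-specific cadherin (Ksp) promoter, thus in tubular cells. Other cells of the kidney kept the gene. The study's results describe removal in distal and connecting tubules and in most proximal tubules. In its discussion the study gives collecting ducts and distal tubules, and proximal tubules to some extent. It names Ksp-Cre mice as better controls for later work. CD44 KO mice and a separate set of wild-type mice had UIRI surgery, in which the pedicle of one kidney is clipped and released, and the other kidney was taken out before the end. The study's methods give the purchased C57BL/6 mice as young adult males. How the CD44 mice were made, the ages of the knockout mice and the time after UUO are not given in the sources used here. Each knockout was set against the controls listed in the same table.

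Chemokines are small secreted proteins that bind to matrix and guide leukocytes along a gradient. Their receptors are G protein-coupled and sit mainly on leukocytes, so that each cell type follows its own ligands: monocytes follow Ccr2 ligands, T and NK cells follow Cxcr3 and Cxcr6 ligands, and neutrophils follow Cxcr2 ligands. Atypical receptors bind ligands without G protein signalling, and some of them clear ligands from the tissue. In an injured kidney, tubular cells and macrophages are known sources of several of these ligands.

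The values were FPKM, which divide a gene's fragments by its length and by the depth of the library, so that levels of different genes may be set side by side. Between 15940405 and 20737443 reads per library were assigned to genes. The Ctnnb1 level, the gene of β-catenin, was 84.7, 71.4 and 71.7 FPKM in the β-catenin knockout mice and 91.2, 86.7 and 98.5 FPKM in their controls. The groups did not overlap, and the difference did not pass the test (log2 fold change −0.28, standard error 0.13, adjusted p = 0.189, limma). The Cd44 level was 19.0, 12 and 13.9 FPKM in the mice labelled CD44 knockout and 19.9, 16.3 and 17.8 FPKM in their controls, so that this gene did not separate the groups (log2 fold change −0.27, adjusted p = 0.339, limma). A gene's value sums all its exons and all cells, so a deleted exon was not measured on its own, and the label of the CD44 knockout mice is used here as a label. Some libraries stood apart in leukocyte genes. The 8 neutrophil markers summed to 576.5 FPKM in wild-type UUO replicate 3 and to between 15.4 and 65.0 FPKM in the other libraries. The 8 dendritic cell markers summed to 832 FPKM in β-catenin knockout replicate 2 against 233 and 244 FPKM in the other mice of its group. Nearly all of these sums came from H2-Ab1, at 822 FPKM against 227 and 229 FPKM. Zbtb46, Clec10a and Itgax of the same list were at most 2.75 FPKM in the 3 mice. In the wild-type UUO mice H2-Ab1 was also highest in replicate 2, at 690 FPKM against 433 and 344 FPKM. In whole kidney RNA, fewer cells of a type and less RNA per cell cannot be told apart.

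In the β-catenin knockout mice, chemokine and receptor genes were mostly lower than in the wild-type mice after UUO. Of the 41 members whose mean level reached 0.5 FPKM, 13 were lower and 0 were higher (limma on log2(FPKM + 1), two-sided, adjusted p under 0.05 over all genes). Of all 16166 genes tested, 4.36% were called lower and 6.21% higher. At an unadjusted p under 0.05, 23 members were lower and 2 were higher, beside 12.9% and 17.0% of all genes. Voom on recovered reads called 14 lower and 1 higher, beside 6.01% and 8.02% of all genes. All 3 knockout values lay below all 3 wild-type values in 19 members and above them in 2, against 15.9% and 19.6% of all genes tested. The median log2 fold change was −1.08 over the members and 0.01 over all genes. Of the members tested, 7 had passed the level filter through the wild-type mice alone, Ccl22 and Ccr7 among the called ones, so these counts describe the members that passed and not all 68.

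Ligands and receptors had similar shares of calls, and a difference between them was not tested. Of 29 ligand genes tested 9 were lower, and of 12 receptor genes 4 were lower. The median log2 fold changes were −1.14 and −1.0, and with a library left out they ranged from −1.25 to −0.97 and from −1.15 to −0.89. With no filter on low levels, where 40 ligand and 24 receptor genes entered, they were −0.64 and −0.37. Among the role groups, the inflammatory CC ligands held the most calls, 5 of 10 tested, and 3 of the 4 CC receptors tested were lower. The 2 members above the wild-type mice without overlap were Ccl28 and Cxcl12, named after their values were seen.

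**Figure D1:**
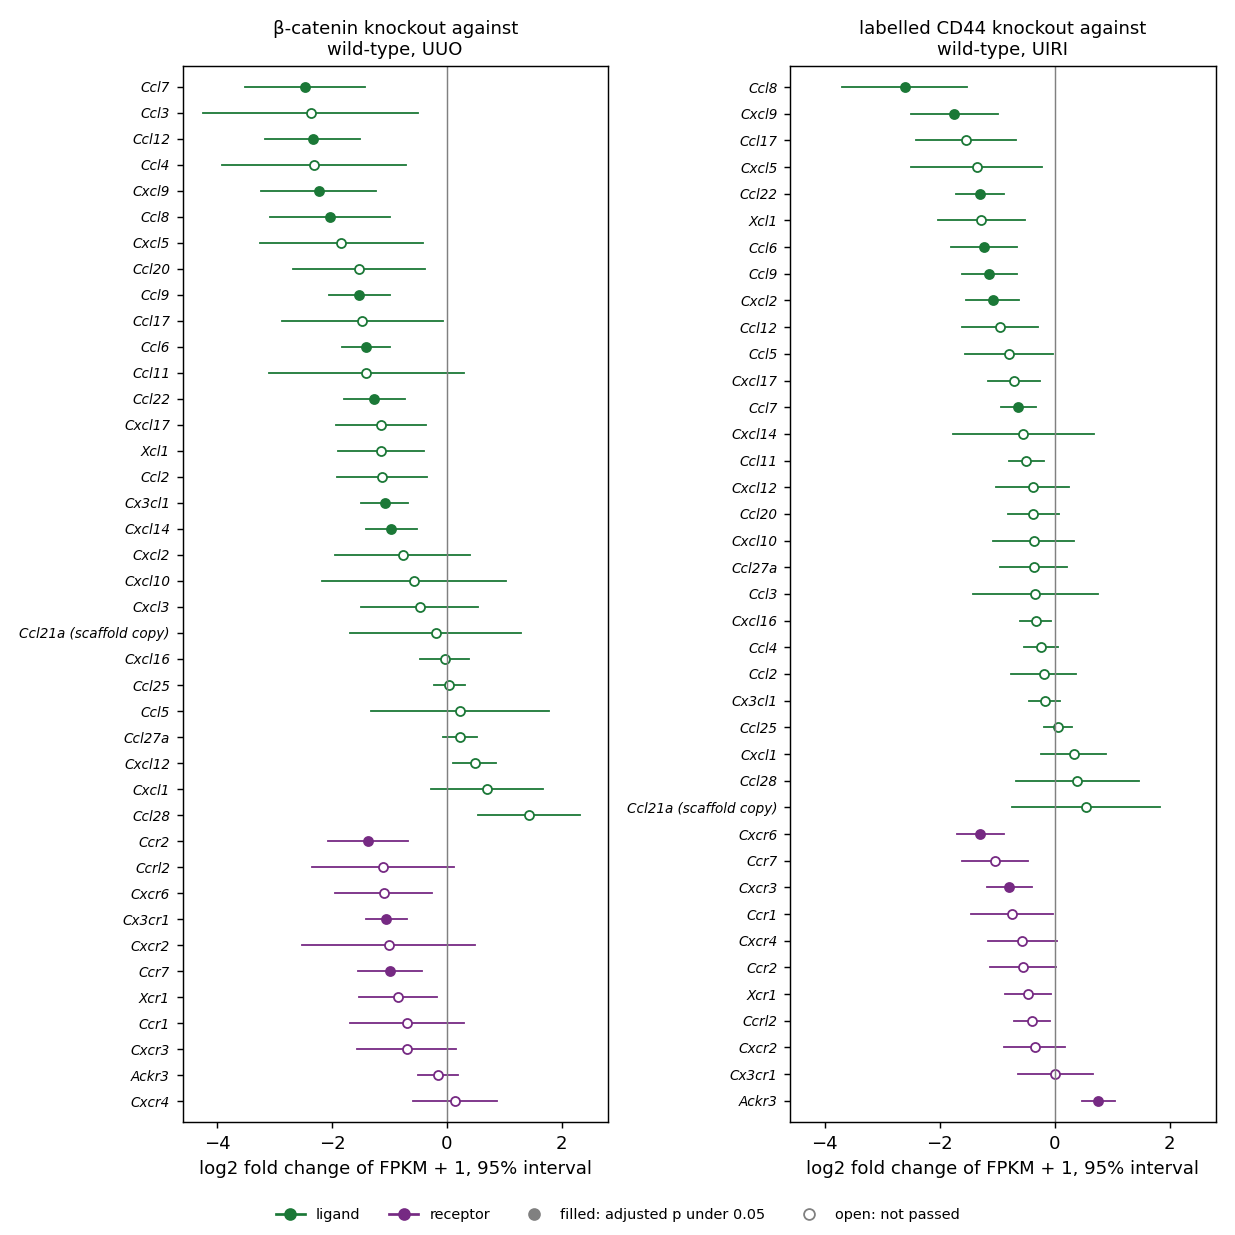
Log2 fold changes of FPKM + 1, knockout against wild-type, with 95% intervals, for 40 of the 41 members tested after UUO and 39 of the 40 tested after UIRI, ligands and receptors in separate blocks. Filled points are the 12 and 10 members shown that were called at an adjusted p under 0.05, and the 1 called to the right of 0 is Ackr3 after UIRI.

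Monocyte-attracting ligands were lower after UUO. Ccl7, a ligand of Ccr2 and Ccr1, measured 5.30, 6.83 and 4.29 FPKM in the β-catenin knockout mice and 15.5, 44.9 and 57.7 FPKM in the wild-type mice, 7.19-fold higher on average in the latter. This gave a log2 fold change of −2.47 with a standard error of 0.44 (adjusted p = 0.0198, limma). Ccl12, a mouse ligand of Ccr2, measured 8.98, 13.6 and 11.3 FPKM against 32.9, 87.5 and 76.2 FPKM (log2 fold change −2.34, adjusted p = 0.0144, limma). In both genes wild-type replicate 1 was the lowest wild-type mouse and still lay above every knockout mouse. The main Ccr2 ligand, Ccl2, is encoded beside them and overlapped between the groups, with 17.5, 30.9 and 17.9 FPKM in the knockout mice and 29.1, 59.7 and 62.1 FPKM in the wild-type mice. It did not pass the test (log2 fold change −1.12, 95% interval −1.91 to −0.34, adjusted p = 0.0733, limma), and with voom the adjusted p was 0.0473.

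Ccr2 itself, the receptor of inflammatory monocytes, was 2.95-fold higher on average in the wild-type mice. Its level was 6.63, 8.40 and 8.88 FPKM in the β-catenin knockout mice and 23.8, 33.2 and 13.5 FPKM in the wild-type mice (log2 fold change −1.37, standard error 0.30, adjusted p = 0.0309, limma). Thus the receptor and 2 of its 3 paired ligands were called lower. The calls of Ccl7 and Ccr2 were lost without β-catenin knockout replicate 1, β-catenin knockout replicate 2 or wild-type replicate 2, with adjusted p of at most 0.0772 and 0.0932, and that of Ccr2 was also lost without wild-type replicate 1. The call of Ccl12 was lost without wild-type replicate 2 alone (adjusted p = 0.0562).

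Ccl6 and Ccl9, constitutive macrophage ligands of Ccr1, gave some of the tightest differences. Ccl6 measured 7.48, 8.37 and 11.2 FPKM in the β-catenin knockout mice and 20.9, 28.3 and 27.1 FPKM in the wild-type mice (log2 fold change −1.40, standard error 0.18, adjusted p = 0.00981, limma). For Ccl9 the values were 7.79, 6.83 and 11.1 FPKM against 20.3, 33.9 and 25.4 FPKM (log2 fold change −1.52, adjusted p = 0.0138, limma). Both ligands were well separated, and the call of Ccl6 held with each library left out, while that of Ccl9 was lost without wild-type replicate 2 (adjusted p = 0.0516). Their receptor Ccr1, found on monocytes and neutrophils, overlapped between the groups, with 2.67, 3.66 and 4.13 FPKM in the knockout mice and 4.95, 3.28 and 13.7 FPKM in the wild-type mice (adjusted p = 0.309, limma). Its highest value was in wild-type replicate 3, the mouse with the high neutrophil markers, and without this mouse its log2 fold change was −0.18.

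The inflammatory CC ligands were not all called lower. Ccl5, also known as RANTES and made by T cells and by activated tubular cells, measured 37.8, 145 and 20.5 FPKM in the knockout mice against 30.6, 64.0 and 35.9 FPKM (log2 fold change 0.23, 95% interval −1.32 to 1.77, adjusted p = 0.848, limma). The high value was in knockout replicate 2, the library with the high H2-Ab1 level, and so was the highest knockout value of Cxcl10, below.

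Ccl3 and Ccl4, the macrophage inflammatory proteins, lay below the wild-type mice in every knockout mouse and did not pass the test. Ccl3 measured 1.14, 1.15 and 1.91 FPKM against 3.30, 7.74 and 48.6 FPKM (log2 fold change −2.37, 95% interval −4.24 to −0.51, adjusted p = 0.0967, limma). Ccl4 measured 0.704, 2.0 and 1.79 FPKM against 3.90, 8.49 and 36.6 FPKM (adjusted p = 0.0706, limma). The highest value of both was again in wild-type replicate 3. Without it their log2 fold changes were −1.37 and −1.49, and neither passed (adjusted p = 0.0547 and 0.0572, limma), while without wild-type replicate 1 Ccl4 passed (adjusted p = 0.0481, limma).

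Ccl8 and Ccl22 completed the CC ligands called lower. Ccl8, a ligand of Ccr8 in the mouse, measured 3.87, 0.861 and 1.87 FPKM in the β-catenin knockout mice and 8.37, 20.7 and 7.72 FPKM in the wild-type mice (log2 fold change −2.03, adjusted p = 0.0321, limma). Ccl22, made by macrophages and dendritic cells and bound by Ccr4, measured 0.050, 0.406 and 0.242 FPKM against 1.84, 2.89 and 1.29 FPKM (log2 fold change −1.26, adjusted p = 0.0196, limma). Neither overlapped between the groups, and both lost the call without wild-type replicate 1 or 2. Ccl8 also lost it without knockout replicate 2 or 3 and Ccl22 without knockout replicate 1, with adjusted p of at most 0.0856 and 0.0664. The paired receptors were too low to be tested. Ccr8 had 0 reads in the knockout mice and 18 in the wild-type mice, and Ccr4 had 5 and 38 reads.

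**Figure D2:**
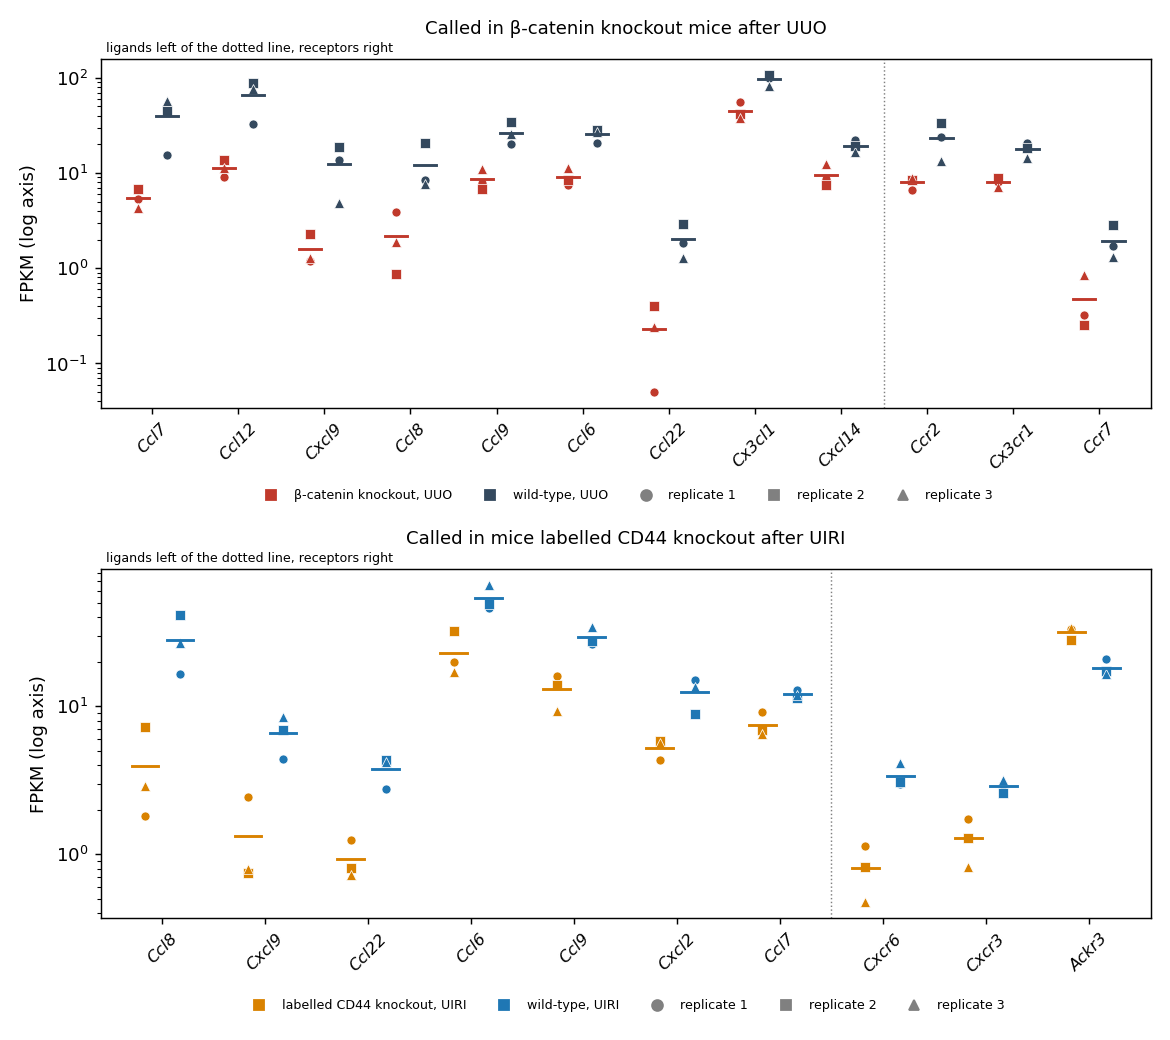
FPKM on a log axis of 12 of the 13 members called in β-catenin knockout mice after UUO (top) and of the 10 called in mice labelled CD44 knockout after UIRI (bottom), 1 point per mouse with the replicate as its shape and a bar at the group mean. No gene shown overlapped between its groups, and Ackr3 alone was higher in the knockout mice.

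After UUO Cx3cl1 and its sole receptor Cx3cr1 were both lower in the β-catenin knockout mice than in the wild-type mice. Cx3cl1, or fractalkine, is a membrane-bound ligand of tubular and endothelial cells, and Cx3cr1 is carried by resident macrophages and patrolling monocytes. The ligand measured 55.2, 41.8 and 38.1 FPKM in the β-catenin knockout mice and 99.0, 107 and 81.9 FPKM in the wild-type mice (log2 fold change −1.08, standard error 0.18, adjusted p = 0.0161, limma). The receptor measured 7.97, 8.82 and 7.07 FPKM against 20.4, 18.4 and 14.4 FPKM (log2 fold change −1.06, standard error 0.15, adjusted p = 0.0132, limma). On average they were 2.13 and 2.23 times higher in the wild-type mice, without overlap. The call of Cx3cr1 was lost without wild-type replicate 2 (adjusted p = 0.0570), and that of Cx3cl1 without β-catenin knockout replicate 2 or wild-type replicate 1 or 2 (adjusted p of at most 0.0663).

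Other ligands with an epithelial source did not move as 1 group. Cxcl16, a membrane-bound ligand like fractalkine and the most abundant ligand in both tables, measured 87.0, 109 and 77.4 FPKM in the knockout mice and 80.2, 112 and 88.7 FPKM in the wild-type mice (log2 fold change −0.04, 95% interval −0.47 to 0.39, adjusted p = 0.913, limma). The groups overlapped throughout. Its receptor Cxcr6, on T and NKT cells, measured 0.843, 1.66 and 0.729 FPKM against 3.66, 5.97 and 1.58 FPKM (adjusted p = 0.0894, limma), and it passed without wild-type replicate 3 (adjusted p = 0.0303). Cxcl14, a ligand with an unsettled receptor, fell from 22.2, 19.0 and 16.8 FPKM in the wild-type mice to 8.72, 7.53 and 12.4 FPKM in the knockout mice (log2 fold change −0.97, adjusted p = 0.0243, limma). The groups did not overlap, and the call was lost without knockout replicate 1 or 2 or wild-type replicate 1 or 2, with adjusted p of at most 0.0837.

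Cxcl9 and Cxcl10, interferon-induced neighbours on chromosome 5 that both bind Cxcr3, gave different results. Cxcl9 measured 1.19, 2.27 and 1.29 FPKM in the β-catenin knockout mice and 13.7, 18.7 and 4.84 FPKM in the wild-type mice (log2 fold change −2.23, standard error 0.43, adjusted p = 0.0236, limma). It was lost without knockout replicate 1 or 2 or wild-type replicate 1 or 2, with adjusted p of at most 0.0734. Cxcl10 measured 28.4, 149 and 33.3 FPKM against 37.7, 107 and 117 FPKM, with the highest value in a knockout mouse (log2 fold change −0.57, 95% interval −2.17 to 1.04, adjusted p = 0.613, limma). Their receptor Cxcr3, of activated T and NK cells, overlapped between the groups at 1.28, 2.32 and 1.82 FPKM against 4.73, 5.52 and 1.43 FPKM (adjusted p = 0.251, limma). Without wild-type replicate 3 it passed, at a log2 fold change of −1.14 (adjusted p = 0.0282, limma).

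The neutrophil-attracting ligands were highest in 1 wild-type mouse. Cxcl1, the mouse counterpart of human GRO-α, was high in every β-catenin knockout mouse at 71.2, 79.2 and 89.1 FPKM, and in the wild-type mice it was 28.7, 39.8 and 101 FPKM (log2 fold change 0.69, 95% interval −0.28 to 1.67, adjusted p = 0.307, limma). Without wild-type replicate 3 it was called higher, at a log2 fold change of 1.21 (adjusted p = 0.0260, limma). Cxcl2 measured 13.0, 12.5 and 8.60 FPKM against 11.9, 13.0 and 49.0 FPKM. Wild-type replicates 1 and 2 thus lay within or next to the knockout range for Cxcl2, and below it for Cxcl1. Cxcl3 and Cxcl5, named after their values were seen, measured 0.249, 0.305 and 0.434 FPKM against 0.250, 0.275 and 2.94 FPKM and 2.74, 1.55 and 4.44 FPKM against 8.66, 5.76 and 35.2 FPKM. Cxcl5 alone of the 4 ligands lay lower in the knockout mice without overlap, and it did not pass with all mice (adjusted p = 0.0928, limma) or without wild-type replicate 3 (log2 fold change −1.11, adjusted p = 0.0964, limma). Their receptor Cxcr2, a neutrophil receptor, was 0.343, 0.351 and 0.462 FPKM in the knockout mice and 0.710, 0.420 and 7.97 FPKM in the wild-type mice. In each of these 5 genes wild-type replicate 3 was the highest of the 6 mice, as it was in S100a8 at 183 FPKM and Csf3r at 41.7 FPKM. None of the 5 passed with all 6 libraries, and the part of neutrophil content in these values was not tested.

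**Figure D3:**
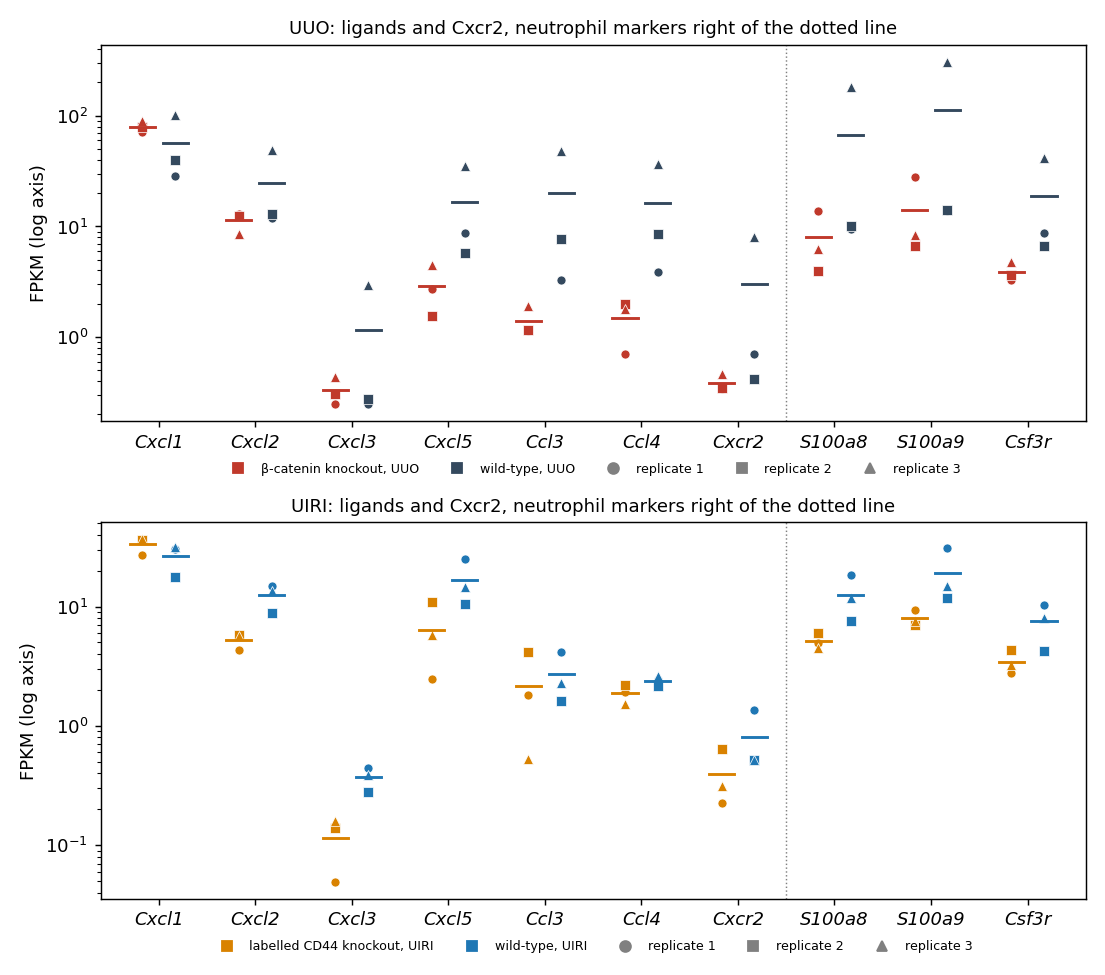
FPKM on a log axis of ligands, Cxcr2 and 3 neutrophil markers in every mouse after UUO (top) and UIRI (bottom), 1 point per mouse with a bar at the group mean. Wild-type UUO replicate 3 (dark triangle) is the highest wild-type mouse for all 10 genes shown, with Cxcl5 at 35.2 FPKM and S100a8 at 183 FPKM, and the knockout mice hold Cxcl1 between 71.2 and 89.1 FPKM.

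Among the other receptors, Ccr7, which leads dendritic cells and T cells to lymphoid tissue, measured 0.323, 0.254 and 0.854 FPKM in the β-catenin knockout mice and 1.72, 2.83 and 1.31 FPKM in the wild-type mice (log2 fold change −0.99, adjusted p = 0.0434, limma). It was the weakest call and was lost without knockout replicate 1 or 2 or wild-type replicate 1 or 2, with adjusted p of at most 0.124. Its ligands Ccl19 and Ccl21a on chromosome 4 were too low to be tested, with 1 and 0 reads in the knockout mice and 33 and 2 in the wild-type mice. A scaffold copy of Ccl21a held most Ccl21 reads, and since Ccl21 genes are near-identical copies their split is uncertain. Ackr3, the scavenger of Cxcl12, was the most abundant receptor gene and did not pass, at 19.7, 22.1 and 15.9 FPKM against 20.6, 23.7 and 20.0 FPKM (log2 fold change −0.16, 95% interval −0.50 to 0.19, adjusted p = 0.508, limma). Cxcr4, the signalling receptor of Cxcl12, overlapped between the groups at 4.79, 4.69 and 10.1 FPKM against 4.93, 4.10 and 7.97 FPKM.

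Cxcl12, a stromal ligand, and Ccl28, an epithelial ligand of Ccr10, were among the 7 members with a positive log2 fold change after UUO, and neither passed the test. Cxcl12 was 7.65, 10.8 and 10.6 FPKM in the β-catenin knockout mice and 6.04, 6.10 and 7.64 FPKM in the wild-type mice (log2 fold change 0.48, adjusted p = 0.0906, limma). The lowest knockout and the highest wild-type value were almost equal. Ccl28 was 3.77, 7.88 and 7.52 FPKM against 1.11, 0.904 and 3.6 FPKM (log2 fold change 1.43, 95% interval 0.53 to 2.32, adjusted p = 0.0554, limma). It passed with voom (adjusted p = 0.0269) and without wild-type replicate 3 (adjusted p = 0.0249).

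The number of calls after UUO changed when 1 mouse was left out, and so did the share of all genes called. Without wild-type replicate 2, 2 members were called lower, Ccl6 among them, where 0.605% of all genes were. Without β-catenin knockout replicate 1 or 2 the counts were 7 and 6, where 1.82% and 1.69% of all genes were called lower. Without wild-type replicate 3 they were 19 lower and 2 higher, beside 3.28% and 3.22% of all genes. With no filter on low levels 7 members were called lower, beside 0.652% of all genes. No member changed direction in a called result under any alternative.

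In the mice labelled CD44 knockout, chemokine and receptor genes also lay mostly below the wild-type mice after UIRI, with a smaller median difference. Of the 40 members tested, 9 were lower and 1 was higher, where 2.19% of the 16113 genes tested were lower and 4.02% were higher. At an unadjusted p under 0.05, 22 were lower and 1 was higher, beside 11.2% and 15.8% of all genes. Voom called 11 lower and 1 higher, beside 4.14% and 6.48% of all genes. All 3 values lay below the wild-type mice in 19 members and above them in 1, against 14.5% and 19.1% of all genes. The median log2 fold change was −0.53 over the members and 0.00 over all genes. Of 28 ligand genes 7 were lower, and of 12 receptor genes 2 were lower and 1 was higher, with medians of −0.52 and −0.53. The receptor median was −0.84 on recovered reads with voom and −0.25 with no filter on low levels. Only 3 members had passed the level filter through the wild-type mice alone, and none of these was called.

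These calls were lost in most fits that left out 1 mouse. With any 1 mouse left out other than the one labelled CD44 knockout replicate 2, 0 members were called, and the adjusted p of the 10 members then reached 0.106 to 0.145. Over all genes at most 0.0311% were called in either direction in those fits. Without CD44 knockout replicate 2, 12 members were lower and 1 was higher, beside 4.73% and 8.79% of all genes. That mouse had the highest macrophage marker sum of its group, 1482 FPKM against 864 and 850 FPKM. With no filter on low levels 0 members were called, where 0.0677% of all genes were lower and 0.146% higher. Since the Cd44 level did not separate the groups, each direction given here follows the label.

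The macrophage ligands Ccl6, Ccl9 and Ccl8 were lower again. Ccl6 measured 19.9, 32.1 and 17.1 FPKM in the mice labelled CD44 knockout and 46.4, 49.5 and 65.9 FPKM in the wild-type mice (log2 fold change −1.23, adjusted p = 0.0396, limma). Ccl9 measured 16.0, 13.9 and 9.23 FPKM against 26.3, 27.8 and 34.3 FPKM (log2 fold change −1.14, adjusted p = 0.0343, limma). Ccl8 had the largest fall of the called members, from 16.4, 41.4 and 26.7 FPKM in the wild-type mice to 1.81, 7.24 and 2.88 FPKM (log2 fold change −2.61, standard error 0.46, adjusted p = 0.0336, limma). All 3 ligands kept the groups apart. Ccr1, the receptor of Ccl6 and Ccl9, overlapped at 2.0, 5.18 and 2.83 FPKM against 8.07, 4.32 and 5.78 FPKM (adjusted p = 0.174, limma).

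Of the Ccr2 ligands, Ccl7 alone was called after UIRI, and it was 9.09, 6.89 and 6.52 FPKM against 12.9, 11.3 and 11.9 FPKM (log2 fold change −0.63, standard error 0.13, adjusted p = 0.0413, limma). Ccl12 had 13.8, 9.14 and 6.33 FPKM against 24, 14.9 and 19.0 FPKM, without overlap, and did not pass (adjusted p = 0.0847, limma). Ccl2 measured 42.1, 22.5 and 25.6 FPKM against 39.1, 28.7 and 32.6 FPKM, and its highest value was in a mouse labelled CD44 knockout (log2 fold change −0.19, 95% interval −0.76 to 0.37, adjusted p = 0.644, limma). Ccr2 overlapped as well, at 6.93, 8.80 and 5.74 FPKM against 7.91, 10.4 and 15.3 FPKM (adjusted p = 0.195, limma). Ccl5 did not pass either, at 17.8, 8.96 and 12.8 FPKM against 14.7, 26.0 and 31.1 FPKM (adjusted p = 0.168, limma).

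T cell and NK cell receptors were among the calls. Cxcr6 measured 1.14, 0.816 and 0.473 FPKM in the mice labelled CD44 knockout and 2.99, 3.07 and 4.16 FPKM in the wild-type mice, 4.21-fold higher on average in the latter (log2 fold change −1.29, standard error 0.17, adjusted p = 0.0267, limma). Cxcr3 measured 1.74, 1.3 and 0.821 FPKM against 2.92, 2.61 and 3.18 FPKM (log2 fold change −0.79, adjusted p = 0.0434, limma). Both receptors kept the groups apart. Of the ligands of Cxcr3, Cxcl9 was called lower at 2.45, 0.744 and 0.791 FPKM against 4.40, 6.86 and 8.53 FPKM (log2 fold change −1.74, adjusted p = 0.0348, limma), and Cxcl10 overlapped at 18.6, 8.05 and 15.5 FPKM against 14.6, 22.0 and 16.6 FPKM (adjusted p = 0.466, limma). Cxcl16, the ligand of Cxcr6, lay below the wild-type mice in every mouse, at 68.2, 59.6 and 52.5 FPKM against 76.6, 72.9 and 76.7 FPKM, and did not pass (log2 fold change −0.33, adjusted p = 0.119, limma). Thus 1 of 21 receptor and ligand pairs tested after UIRI, Cxcr3 with Cxcl9, was lower in both partners, and 3 of 22 were after UUO.

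Ccl22 and Cxcl2 were the remaining ligands called lower after UIRI. Ccl22 was 1.24, 0.808 and 0.720 FPKM against 2.74, 4.32 and 4.20 FPKM (log2 fold change −1.3, standard error 0.18, adjusted p = 0.0267, limma). Cxcl2 was 4.36, 5.80 and 5.64 FPKM against 14.9, 8.86 and 13.5 FPKM (log2 fold change −1.08, adjusted p = 0.0348, limma). Cxcl1, encoded next to Cxcl2, overlapped and had the other sign, at 26.9, 36.2 and 36.5 FPKM against 30.5, 17.8 and 31.8 FPKM (log2 fold change 0.33, 95% interval −0.23 to 0.90, adjusted p = 0.405, limma). Cxcr2, their receptor, measured 0.227, 0.636 and 0.316 FPKM against 1.37, 0.517 and 0.514 FPKM, an overlap at low level (adjusted p = 0.361, limma).

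Ackr3 was the only member called higher in either comparison. It measured 33.4, 27.9 and 33.7 FPKM in the mice labelled CD44 knockout and 20.8, 17.4 and 16.5 FPKM in the wild-type mice (log2 fold change 0.76, 95% interval 0.48 to 1.05, adjusted p = 0.0288, limma). The groups were well apart, and Ackr3 alone made up 37.2% of the summed receptor FPKM of this table. Its ligand Cxcl12 overlapped, at 8.53, 8.90 and 10.5 FPKM against 11.8, 19.3 and 8.27 FPKM, and so did Cxcr4, at 5.27, 7.71 and 5.25 FPKM against 8.46, 6.79 and 13.9 FPKM (adjusted p = 0.399 and 0.211, limma).

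The fractalkine pair did not pass after UIRI. Cx3cl1 measured 48.4, 42.0 and 46.8 FPKM against 58.4, 50.8 and 46.4 FPKM (log2 fold change −0.17, 95% interval −0.44 to 0.09, adjusted p = 0.363, limma). Cx3cr1 measured 5.15, 11.5 and 5.64 FPKM against 7.18, 5.80 and 7.93 FPKM (log2 fold change 0.01, 95% interval −0.64 to 0.66, adjusted p = 0.983, limma), and the highest value was in the mouse labelled CD44 knockout replicate 2.

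Both comparisons called Ccl6, Ccl7, Ccl8, Ccl9, Ccl22 and Cxcl9 lower, 46.2% of the 13 called after UUO and 66.7% of the 9 called after UIRI. Over all genes tested in both tables, 125 were lower in both, 18.1% and 35.9% of those lower after UUO and after UIRI. Of the 40 members tested in both tables, 30 had a negative log2 fold change in both, which is 75% beside 33.2% of all 15489 genes. The comparisons share no mouse. A difference between the effects was tested on recovered reads by voom with an interaction term, over 16790 genes, of which 0.00596% passed. Of 41 members 0 passed and 6 had an unadjusted p under 0.05, which is 14.6% of members beside 12.9% of all genes. The smallest adjusted p was that of Ackr3 at 0.132, with an effect after UUO 0.95 below that after UIRI on the log2 scale. Next came Cx3cl1 at −0.90 (95% interval −1.37 to −0.43, adjusted p = 0.166, voom) and Cx3cr1 at −1.12 (adjusted p = 0.226, voom). The call of the fractalkine pair after UUO and not after UIRI was therefore not shown to be a difference between the models. Without wild-type UUO replicate 1, 1 member passed, Ccl7 (difference −2.53, adjusted p = 0.0352, voom).

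**Figure D4:**
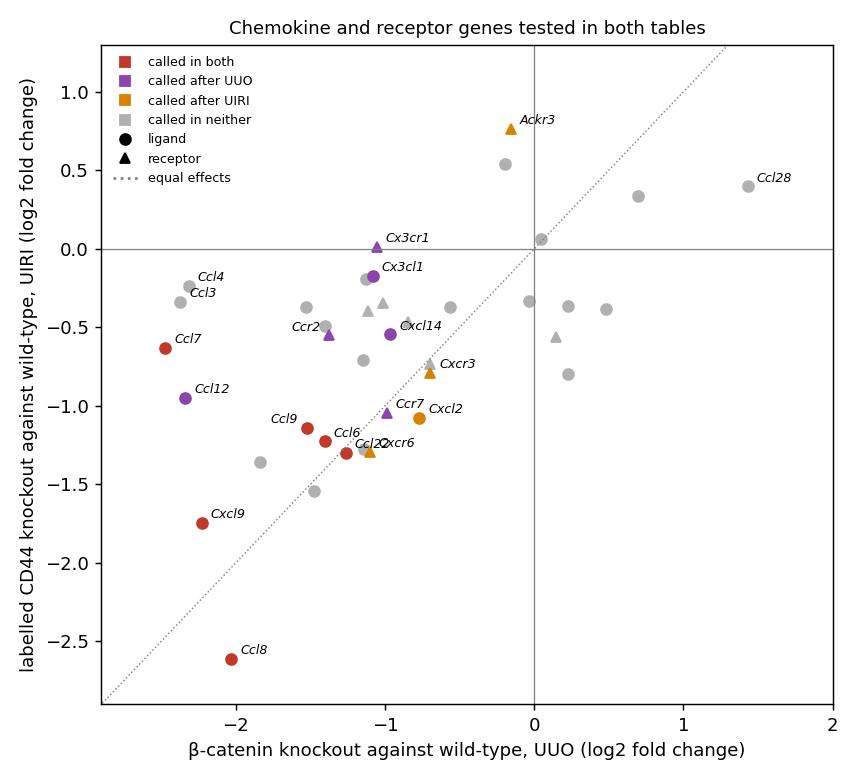
Log2 fold changes of 39 of the 40 members tested in both tables, β-catenin knockout against wild-type after UUO on the x axis and mice labelled CD44 knockout against wild-type after UIRI on the y axis. The 6 members called in both lie at the lower left, where 29 of the 39 members shown lie, and Ackr3 lies above the line of 0 on the y axis.

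Many ligand genes lie in clusters, and the calls within a cluster differed. On chromosome 11 of GRCm38 from 82035571 to 82305690 lie Ccl2, Ccl7, Ccl11, Ccl12, Ccl8 and Ccl1. Of the 5 tested there, 3 were lower after UUO and 2 after UIRI, and all 5 had negative log2 fold changes in both tables, from −2.47 to −1.12 and from −2.61 to −0.19. A second cluster on the same chromosome, from 83525778 to 83664683, holds Ccl5, Ccl9, Ccl6, Ccl3 and Ccl4, of which Ccl6 and Ccl9 were lower in both comparisons. The CXC cluster on chromosome 5 from 90759360 to 90905938 had 0 of 4 called after UUO, and 1 of 3 after UIRI, Cxcl2. On chromosome 8 from 94745590 to 94812036, Ccl22, Cx3cl1 and Ccl17 are neighbours, and Ccl17, a second ligand of Ccr4, did not pass in either table (adjusted p = 0.149 after UUO and 0.0560 after UIRI, limma). Among the receptor genes clustered on chromosome 9, Ccr2 was called after UUO and Cxcr6 after UIRI.

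Promoter sequence was compared for the members that had a RefSeq window (GRCm38.p6, around the annotated start and mostly upstream of it), 47 of 62 symbols with 56 windows. An NF-κB motif, GGANNTTCC on either strand, was in 8 of 56 member windows (14.3%) and in 4.26% of all 32851 windows. The interferon-stimulated response element GAAANNGAA was in 14.3% and 8.56%, the STAT motif TTCNNNGAA in 7.14% and 8.30%, the AP-1 motif TGANTCA in 17.9% and 7.81%, and the TCF/LEF motif CTTTGAN, the core bound by the partners of β-catenin, in 19.6% and 16.0%. STAT and TCF/LEF matches overlapped in the windows of Ccl17 and Ccr6. The matches are letters in a window and were not read as binding.

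Shown first are 100 bases before the start of Cxcl1, Cxcl2 and Cxcl3, with the NF-κB motif in capitals, since these neighbours differed in sign between knockout and wild-type mice. They lie on the plus strand at chr5:90891125-90891224, chr5:90903779-90903878 and chr5:90785981-90786080, each from 120 to 21 bases before the start.
Cxcl1: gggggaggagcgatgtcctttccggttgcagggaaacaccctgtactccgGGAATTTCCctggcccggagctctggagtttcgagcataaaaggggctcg
Cxcl2: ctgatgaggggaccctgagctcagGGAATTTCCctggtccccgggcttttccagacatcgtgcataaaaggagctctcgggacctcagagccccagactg
Cxcl3: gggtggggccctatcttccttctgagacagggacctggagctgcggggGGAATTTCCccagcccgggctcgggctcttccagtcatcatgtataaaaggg
All 3 hold the same 9 letters, GGAATTTCC, within 100 bases of the start, while the log2 fold changes after UUO were 0.69 for Cxcl1, −0.77 for Cxcl2 and −0.48 for Cxcl3, none of which passed the test.

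Cxcl9 and Cxcl10 are shown because the first was called lower in both tables and the second in neither. These stretches lie on the minus strand at chr5:92328210-92328309 and chr5:92349020-92349119, from 230 to 131 bases before the start, and capitals mark the interferon-stimulated response element in both and, further on in Cxcl10, the NF-κB motif.
Cxcl9: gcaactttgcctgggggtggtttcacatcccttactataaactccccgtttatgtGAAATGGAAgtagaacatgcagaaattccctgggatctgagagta
Cxcl10: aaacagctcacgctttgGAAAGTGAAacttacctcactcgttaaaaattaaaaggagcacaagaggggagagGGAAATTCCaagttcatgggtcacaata
Both windows held an interferon-stimulated response element, and only the Cxcl10 window held the NF-κB letters searched. Ccl12, one of the ligands lower after UUO, carried the NF-κB motif next to its start, here at chr11:82101745-82101844 on the plus strand, the 100 bases before the start, with the motif in capitals.
Ccl12: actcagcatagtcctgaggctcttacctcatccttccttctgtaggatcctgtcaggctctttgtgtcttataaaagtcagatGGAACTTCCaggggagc

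Genes that act below chemokine receptors were called lower in part. Of 39 signalling genes tested after UUO, 15 were lower and 0 higher, beside 4.36% and 6.21% of all genes. Their median log2 fold change was −0.55. The 3 with the smallest p were Rac2, a GTPase of leukocyte movement, at −1.45 (adjusted p = 0.00935), Dock2, its exchange factor, at −0.92 (adjusted p = 0.0107), and Pik3cd, a leukocyte PI3-kinase, at −0.93 (adjusted p = 0.0107, limma). These genes are expressed mainly by leukocytes. After UIRI 5 of 37 were lower and 2 higher (13.5% and 5.4%), beside 2.19% and 4.02% of all genes. Arrb2, Gng2 and Rac2 had the smallest p, at −0.78, −0.88 and −0.96 (adjusted p = 0.0267 each, limma). Among 22 inducers of chemokine genes, such as cytokines, receptors and transcription factors, 2 were lower after UUO (9.09%), beside 4.36% of all genes. They were Tlr4 at −0.79 and Rel at −0.72, and next came Nfkb1 at −0.49 (adjusted p = 0.0161, 0.0288 and 0.0708, limma). After UIRI 3 of 20 were lower, beside 2.19% of all genes. These were Tnf at −0.89, Tlr2 at −0.38 and Il1b at −0.48 (adjusted p = 0.0326, 0.0362 and 0.0409, limma).

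Among the markers of cells that carry these receptors, macrophage genes were called in both comparisons. Of all genes tested, 4.36% after UUO and 2.19% after UIRI were called lower. At an unadjusted p under 0.05 these shares were 12.92% and 11.25%. Of 15 macrophage and monocyte markers, 12 were lower after UUO and 8 after UIRI. Their summed level was 642 to 753 FPKM in the β-catenin knockout mice against 1245 to 1517 FPKM, and 850 to 1482 FPKM in the mice labelled CD44 knockout against 2181 to 2263 FPKM. Adgre1, which encodes F4/80, was lower by 1.57 and 0.82 on the log2 scale (adjusted p = 0.00814 and 0.0310, limma). T and NK cell markers had 0 of 13 called after UUO (6 at an unadjusted p under 0.05) and 5 of 11 lower after UIRI, the latter including Lck at −1.11 and Nkg7 at −1.46 (adjusted p = 0.0267 each, limma), and they summed to 13.3 to 29.8 FPKM against 26.7 to 58.3 FPKM and to 14.8 to 23.1 FPKM against 41.3 to 58.7 FPKM. Neutrophil markers had 0 calls in both comparisons (2 of 6 and 4 of 5 at an unadjusted p under 0.05), although Csf3r without wild-type UUO replicate 3 passed (adjusted p = 0.0468, limma). No marker was at 0 in every library, and Ly6g, Cd28, Lyve1, Blk, Ms4a1 and Pax5 were below 0.5 FPKM in every library.

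Some markers of the resident tissue were called too. Tubule markers were higher in 6 of 12 after UUO, beside 6.21% of all genes, and summed to 1757 to 2223 FPKM against 933 to 1098 FPKM. After UIRI 4 of 12 were higher, beside 4.02% of all genes, with sums of 1680 to 2149 FPKM against 1347 to 2113 FPKM. Slc34a1, a phosphate transporter of the proximal tubule, was higher by 1.6 and 1.53 on the log2 scale (adjusted p = 0.0181 and 0.0362, limma). Not every tubule marker was higher: 11 of 12 log2 fold changes were positive after UUO and 10 of 12 after UIRI. The lowest were −0.03 and −0.67. Fibroblast and pericyte markers were lower in 4 of 9 and 2 of 9, where 4.36% and 2.19% of all genes were. Of their log2 fold changes, 2 of 9 were positive after UUO and 0 of 9 after UIRI. They summed to 73.4 to 226.9 FPKM against 224 to 278 FPKM and to 132 to 299.7 FPKM against 256.5 to 430.3 FPKM. Endothelial markers were lower in 1 of 7 and 0 of 8, beside 4.36% and 2.19% of all genes. Their sums were 119 to 137 FPKM against 150 to 167 FPKM and 79.4 to 111 FPKM against 93.9 to 109 FPKM. Dendritic cell markers were lower in 2 of 7 and 1 of 7, beside the same shares of all genes. Their sums, mostly of H2-Ab1, were 233 to 832 FPKM against 355 to 725 FPKM and 329 to 476.5 FPKM against 550.1 to 761.8 FPKM. B cell markers were called in 0 of 1 and 0 of 2, with sums of at most 5.51 FPKM in any library. The part of these cell types in the chemokine and receptor calls was not tested.

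**Figure D5:**
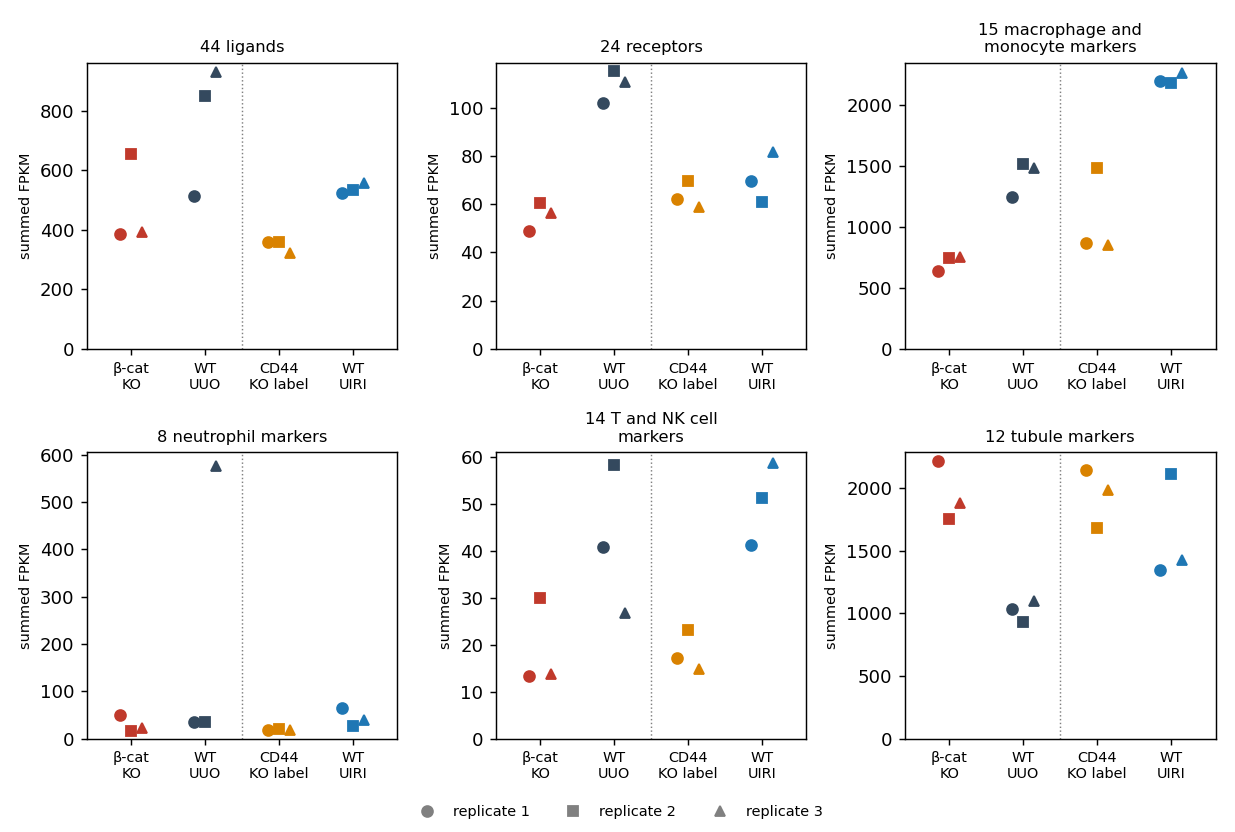
Summed FPKM per library of the 44 ligands, the 24 receptors and 4 marker lists, 1 point per mouse with the replicate as its shape, on axes that start at 0. Receptor sums were 48.9 to 60.3 FPKM in the β-catenin knockout mice and 102 to 115 FPKM in their controls, and wild-type UUO replicate 3 stands apart in neutrophil markers at 576.5 FPKM.

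As summed levels, the 24 receptor genes were 48.9, 60.3 and 56.5 FPKM in the β-catenin knockout mice and 102, 115 and 110.5 FPKM in the wild-type mice, and the 44 ligand genes were 386, 655 and 391 FPKM against 512, 850 and 931 FPKM. The receptor sums were apart, and the ligand sums overlapped through knockout replicate 2, whose Ccl5 and Cxcl10 alone came to 145 and 149 FPKM. After UIRI the ligand sums were apart, at 361, 358 and 323 FPKM against 524, 532 and 558 FPKM, and the receptor sums overlapped at 62.3, 69.6 and 59.0 FPKM against 69.5, 61.0 and 81.5 FPKM. In the latter, Ackr3 was higher while the other 2 called receptors were lower. Sums weigh the abundant genes most, and no test was made of them.

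The other members were too low for a test, 27 after UUO and 28 after UIRI, 12 of them receptors in each table. They were the copies of Ccl19, Ccl21 and Ccl27 apart from 1 entry each of Ccl21a and Ccl27a, the ligands Ccl1, Ccl24, Ccl26, Cxcl13 and Cxcl15, the receptors Ccr1l1, Ccr3, Ccr4, Ccr6, Ccr8, Ccr9, Ccr10, Cxcr1 and Cxcr5, the atypical receptors Ackr1, Ackr2 and Ackr4, and after UIRI also Cxcl3. None had more than 101 reads over the 6 libraries of a table, and 4 had no read after UUO and 7 after UIRI. Fewer reads were counted in the knockout mice than in the wild-type mice for 17 and 18 of them, and more for 2 and 2. Cxcl13, the B cell ligand, had 5 reads against 52 after UUO. No difference was tested in these genes.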

How the data were processed

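Kidney RNA was extracted with Trizol and sequenced from libraries of a kit that does not mark strand. The authors aligned reads with HISAT2 2.0.5 to GRCm38, used featureCounts 1.5.0-p3 for gene counts and deposited FPKM calculated from gene length and count. The values stand in 2 tables with wild-type columns of the same names, which were assigned by the knockout in the same table. FPKM times gene length gave whole reads for 100% of values (within 0.01 read), and its depth term equalled size factors computed within each table, so levels were compared within a table.

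Members, gene lists and tests were chosen with earlier results of these data known. Genes whose mean over the 6 libraries of a table reached 0.5 FPKM were fitted with limma 3.58.1 (R 4.3.3; lmFit, eBayes with trend) on log2(FPKM + 1), two-sided, with Benjamini-Hochberg adjustment over all genes and a threshold of 0.05. Fold changes on this scale understate those of low genes. With 3 mice against 3, an exact permutation test of 1 gene cannot go below 0.1. Whole reads were used for voom and for the interaction term. Values of every mouse were given for members called, the 4 most abundant ligands and receptors of each table, and the textbook partners of called members. Of the signalling and inducer lists the 3 smallest p were named. Of the marker lists only some genes were named, not always the 3 with the smallest p. Also tried were voom, TPM, limma without trend, a replicate block, a pseudocount of 0.1 or 0.01, a filter at 1 FPKM or none, and each library left out. The procedure was tested on simulated data. Python 3.11.15, pandas 2.3.3, NumPy 2.4.6 and Matplotlib 3.10.9 were used for summaries and figures. Replicates of a group differed by more than sampling noise. Some genes that entered the fits and counts are not reported here.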

Additional observations from a re-analysis of the deposited data

How the results depend on the processing

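Of the 13 members called after UUO, 6 passed under every alternative that kept all libraries, 2 (Ccl6 among them) with each library left out as well, and of the 10 called after UIRI 0 did. No called member turned its direction. After UUO the count called lower was 7 with no filter, beside 0.652% of all genes. The count called higher was 1 with a filter at 1 FPKM, 1 with voom and 1 with the replicate block, beside 7.91%, 8.02% and 6.14% of all genes. With each library left out the counts ranged from 2 to 19 lower and from 0 to 2 higher. Shares of all genes then ranged from 0.605% to 5.05% lower and from 0.803% to 10.1% higher. After UIRI 0 members were called lower and 0 higher with no filter, beside 0.0677% and 0.146% of all genes. The same counts were 0 with the replicate block, under which no gene of the table passed. With each library left out they ranged from 0 to 12 lower and from 0 to 1 higher, the largest shares of all genes being 4.73% and 8.79%. With no filter the medians after UUO were −0.64 for ligands and −0.37 for receptors. The median of the receptors after UIRI, −0.53, was −0.25 with no filter, −0.83 at a pseudocount of 0.01 and −0.84 with voom. The count that differed between the effects ranged from 0 to 1. Rescaling to TPM moved the median of all genes to −0.19 after UUO and −0.12 after UIRI. Then 18 and 11 members were lower, beside 7.29% and 2.94% of all genes. The cause of these changes was not tested. Knockout and wild-type mice share replicate numbers in the labels, which state no pairing. Same-numbered mice correlated at 0.08, 0.20 and 0.04 after UUO and at −0.14, −0.03 and −0.03 after UIRI in their deviations from group means. After UUO replicates 1 and 2 matched their own number best and replicate 3 did not, and after UIRI none did. Whether mice were paired cannot be told from these values. The block called 16 members lower after UUO, beside 4.175% of all genes. Members of few reads, and members whose wild-type mice ranged widely such as Ccl3 and Ccl11, had intervals too wide for a call.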

Other observations

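Genes named as chemokines that the tables do not give as protein coding were not members, and 2 of the 3 had reads. Cxcl11, an interferon-induced ligand of Cxcr3 given as a polymorphic pseudogene, lies beside Cxcl10. It measured 0.260, 2.50 and 0.341 FPKM in the β-catenin knockout mice and 0.543, 2.15 and 1.77 FPKM in the wild-type mice after UUO, high in the same knockout replicate 2 as Cxcl10. After UIRI it was at most 0.333 FPKM in every mouse. Ccl19-ps3, a copy given as a pseudogene of the Ccr7 ligand Ccl19, measured 0.359, 1.75 and 1.04 FPKM in the knockout mice and 5.73, 26.0 and 0.545 FPKM in the wild-type mice after UUO, with 158 reads in wild-type replicate 2, where Ccl19 on chromosome 4 was at 1.35 FPKM. Reads of near-identical Ccl19 copies may have been split between them, which was not tested.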
